A study of Mus musculus with 15 samples.

Results

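Mouse lymphatic endothelial cells (LECs) that had received angiotensin II (Ang II) at 500 nM for 12 h were compared with LECs that had received saline. The arrays were taken by their titles, 5 of Ang II 12 h and 5 of the saline control, out of 15 arrays in the series. The other 5 arrays, of Ang II for 24 h, entered only the estimate of the spread, the mark of low signal described below and a few values given beside those at 12 h. All cells were purchased mouse LECs grown in DMEM with fetal bovine serum and antibiotics, which the labels call a cell line and the paper calls primary cells. The labels give the dose as 500 nM, and the paper's methods also state a lower one. No harvest time is stated for the saline control, so Ang II and time in culture cannot be told apart. The replicates are numbered, but nothing states that they were separate cultures, so that a p-value covers only how far these arrays differ among themselves, and that may be technical. The probe set identifiers belong to another array design than the one named in the methods.

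The array gave one log2 level, the logarithm of the normalized fluorescence, for each of 22206 probe sets, and 19572 of these carried 1 gene symbol (19505 symbols). As a mark of low signal, 485 probe sets of receptors of vomeronasal, taste and trace amine type, keratin-associated proteins and defensins, which are silent in most tissues, were used. The 95th percentile of their mean levels over all 15 arrays was 6.26. Of the probe sets with 1 symbol, 2847 (14.5%) had a mean over the 10 arrays above this mark and are called well measured, and the other 16725 are called near background. A level depends on the probes as well as on the transcript, so levels of different genes were not compared, and a gene near background is not thereby a silent gene.

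Ang II is the effector peptide of the renin-angiotensin system. It acts mainly through the angiotensin II type 1 receptor (AT1R), encoded in mice by Agtr1a and Agtr1b, which couples to Gq proteins, raises calcium in the cell and activates calcineurin, protein kinase C and the MAP kinases. In many cell types early response genes such as those of the Egr, Fos and Jun families follow soon after, together with phosphatases that end MAP kinase signalling. LECs line the lymphatic vessels, and their identity rests on the transcription factor Prox1 and on surface proteins such as Lyve1 and the VEGF-C receptor Flt4.

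The arrays of both groups were alike in their totals. Array medians were 4.81 to 4.84 at 12 h and 4.80 to 4.82 with saline, and pairs of arrays correlated across probe sets at r = 0.958 to 0.972 within groups and 0.957 to 0.972 between groups. Saline replicate 3 stood apart, with a residual SD of 0.336 against 0.266 to 0.285 for the other saline arrays and 0.258 to 0.285 at 12 h. The highest value, 19.93, was reached by 4 probe sets on all 10 arrays, where a difference cannot be seen.

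Of the markers that name the cells, few had a clear signal. Among 12 lymphatic markers, Nr2f2, a nuclear receptor of venous and lymphatic endothelium, had mean levels of 11.34 at 12 h and 11.62 with saline, and the chemokine gene Ccl21a 6.49 at 12 h and 6.36 with saline. Prox1 (4.94 at 12 h and 5.25 with saline), Lyve1 (4.40 at 12 h and 4.25 with saline) and Flt4 (4.69 at 12 h and 4.45 with saline) lay near background, as did all 11 general endothelial markers measured. The defining markers of the labelled cell type were thus near background in both groups. Gapdh, a glycolytic enzyme of most cells, was near background too, at 4.27 at 12 h and 4.13 with saline. Of the markers of other cell types, 0 of 7 for fibroblasts, 0 of 8 for smooth muscle and pericytes, 1 of 8 for epithelium (the keratin Krt8, 8.22 at 12 h and 8.02 with saline) and 1 of 7 for leukocytes (Ptprc, 7.07 at 12 h and 6.75 with saline) lay above the mark. The mean level over the markers of each list overlapped between the groups, at 5.07 to 5.21 on the arrays at 12 h and 5.04 to 5.21 with saline for the lymphatic list, 4.54 to 5.01 at 12 h and 4.63 to 4.82 with saline for fibroblasts, and 4.84 to 5.18 at 12 h and 4.82 to 5.01 with saline for leukocytes. Near background the fibroblast marker Dcn (0.37) and the epithelial marker Epcam (-0.49) had an unadjusted p under 0.05, and no marker passed the adjusted test. Of all probe sets near background 4.97% had such a p. Over the whole lists, fibroblast markers had 4 higher and 2 lower means (median 0.02). Epithelial markers had 5 higher and 3 lower means (median 0.07). In cultured cells profiled in bulk, fewer cells of a type and less RNA per cell cannot be told apart.

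**Figure D1:**
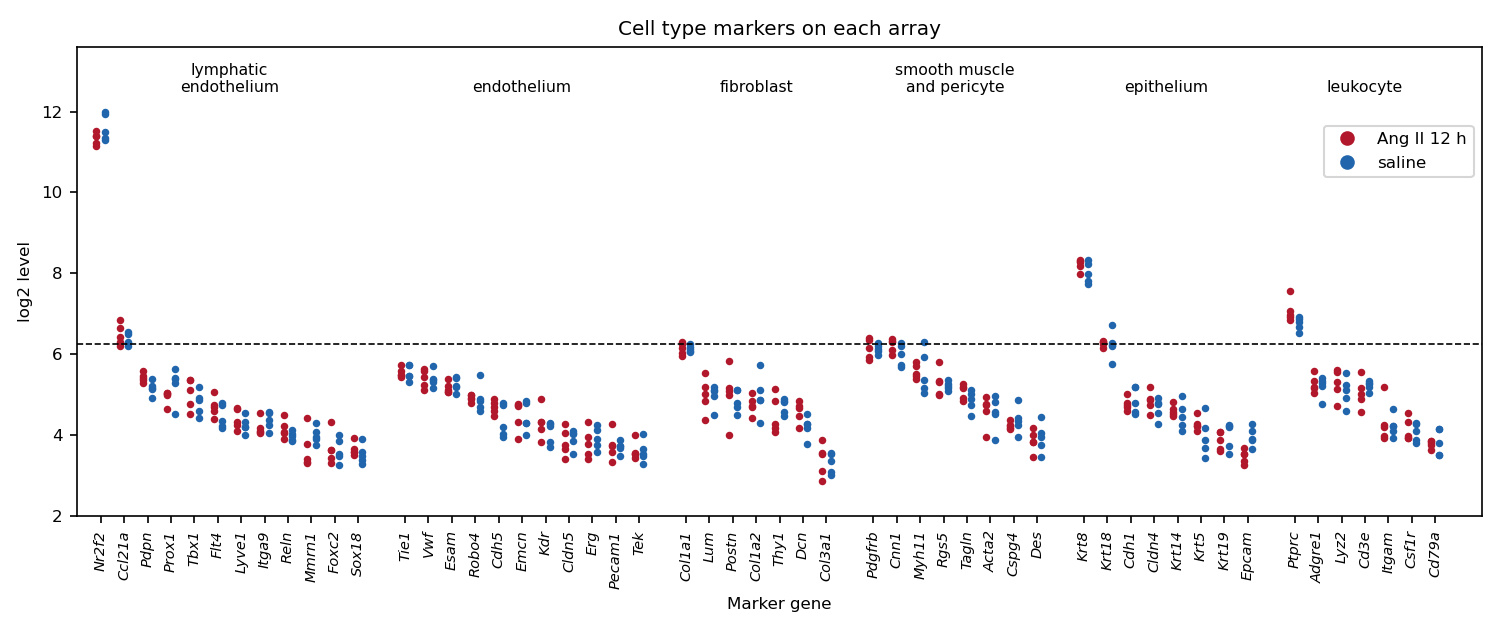
Log2 levels of cell type markers on each array, with the 5 arrays of Ang II 12 h as red points to the left of the 5 saline arrays in blue for each gene, and the mark of low signal as a dashed line at 6.26. Only Nr2f2, Ccl21a, Krt8 and Ptprc have a mean above the line, and the points of both groups overlap for each of these.

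No gene passed the adjusted test after 12 h of Ang II. Each probe set was tested with limma, a linear model that shares information on the spread across probe sets, with Benjamini-Hochberg adjustment of the p-values of the full array. Of 22206 probe sets, 0 (0%) had an adjusted p under 0.05, and the smallest adjusted p was 0.934. Before adjustment 1091 (4.91%) had a p under 0.05, 557 higher (2.51%) and 534 lower (2.40%) at 12 h, and 222 (1.00%) had a p under 0.01. By Duncan's test, the one named in the methods, 938 had an unadjusted p under 0.05 and 0 passed after adjustment. The well measured probe sets had a share of 4.57% under 0.05, with 55 higher (1.93%) and 75 lower (2.63%) at 12 h, and those near background 4.97%, with 437 higher (2.61%) and 395 lower (2.36%).

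Differences at 12 h were small beside the spread between arrays. The median size of a difference was 0.11 on the log2 scale among well measured probe sets, whose median standard error (SE) was 0.17, and the differences ran from -0.75 to 1.02. A difference of 0.5 or more was seen in 30 of them (1.05%), 12 higher (0.421%) and 18 lower (0.632%), and a difference of 1 or more in 1 (0.0351%), Rragc. Near background 273 (1.63%) differed by 0.5 or more, and the median difference over well measured probe sets was -0.01. With this number of arrays, a well measured gene of median spread would have needed a difference of about 1.10 to pass by itself over all probe sets.

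**Figure D2:**
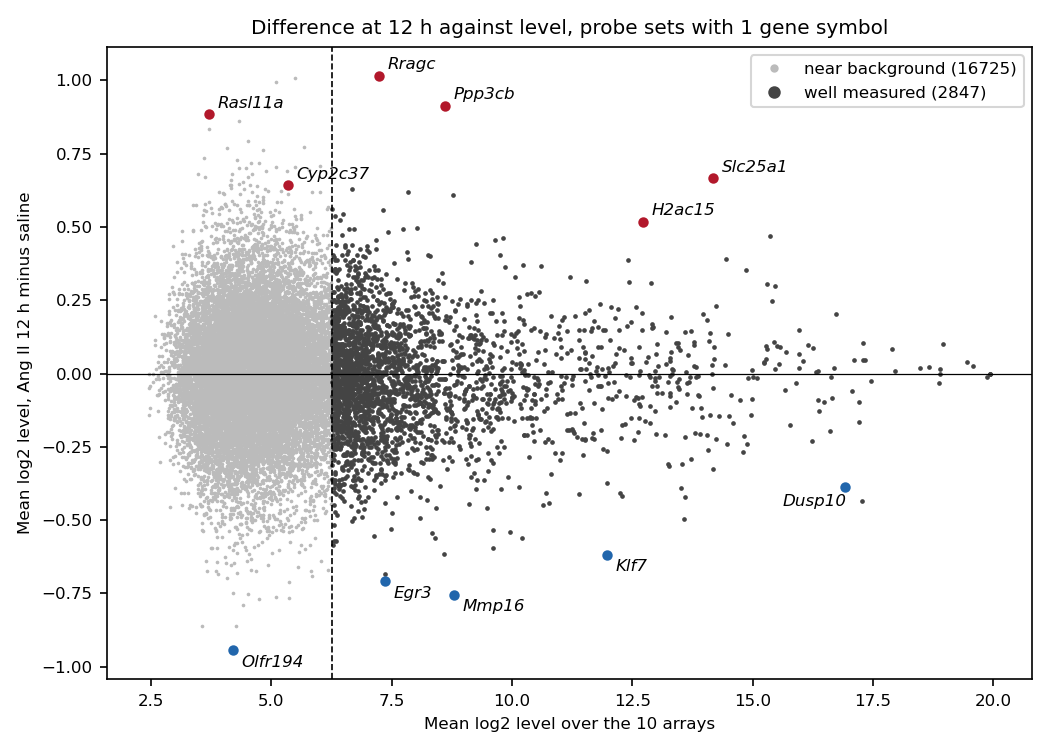
Difference between mean log2 levels, Ang II 12 h minus saline (vertical axis), against the mean log2 level over the 10 arrays (horizontal axis) for 19572 probe sets with 1 symbol, grey near background and black well measured, with the mark of 6.26 as a dashed line. The cloud lies around 0 at every level, and the named genes, red where higher and blue where lower at 12 h, lie at its edges from -0.94 (Olfr194) to 1.02 (Rragc).

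The genes of the following paragraphs are the 24 well measured genes that had the smallest unadjusted p, 12 on the side of higher and 12 on the side of lower means after Ang II. They were ranked by the same contrast that is described, so their size is that of selected genes, and their adjusted p-values in limma were 0.934 to 0.966. Their SEs were 0.13 to 0.31. Without saline replicate 3 all 24 kept their direction and an unadjusted p under 0.05, and the differences were 0.70 to 1.23 times those with it. The remaining arrays had also served to rank these genes, so this outcome was largely set by the choice and is no independent support.

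The higher means included those of Pik3ip1, Rragc and Slc25a1. Pik3ip1, a membrane protein that inhibits phosphatidylinositol 3-kinase, had log2 levels of 6.77, 6.99, 7.07, 6.94 and 7.19 in the arrays of 12 h, against 6.74, 6.44, 5.97, 6.27 and 6.39 with saline. The lowest array at 12 h lay just above the highest saline array, and the difference was 0.63 (SE 0.18, unadjusted p = 0.00181). Rragc, a Rag GTPase that brings mTORC1 to the lysosome when amino acids are present, had 7.42, 7.21, 8.02, 7.64 and 8.48 at 12 h, against 6.89, 6.93, 6.99, 5.43 and 7.45 with saline. Here the groups overlapped, saline replicate 4 was far below the rest of its group, and the difference of 1.02 (SE 0.31, unadjusted p = 0.00393) was the widest among well measured genes. Slc25a1, the carrier that exports citrate from mitochondria for lipid synthesis, had 14.42, 14.92, 14.42, 14.48 and 14.34 at 12 h, against 14.09, 13.39, 14.22, 13.77 and 13.77 with saline. All 5 arrays at 12 h lay above all saline arrays, with a difference of 0.67 (SE 0.18, unadjusted p = 0.00130), a ratio of 1.59.

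Ppp3cb, the beta isoform of the catalytic subunit of calcineurin, the phosphatase that calcium activates, belongs to the path from Gq. Its levels were 9.04, 8.77, 9.56, 9.13 and 8.83 at 12 h, against 8.35, 8.57, 7.44, 7.34 and 9.06 with saline. Saline replicates 3 and 4 lay far below all other arrays, replicate 5 lay within the range of 12 h, and the difference was 0.91 (SE 0.26, unadjusted p = 0.00191). Without saline replicate 3 it was 0.74.

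The other 8 genes with higher means had various roles or none known here. Kctd5 and Klhl7, both adaptors of cullin-3 ubiquitin ligases, differed by 0.62 and 0.52, and in each the groups overlapped. Hsph1, a large heat shock protein that helps Hsp70, and Lrpap1, a chaperone of receptors of the LDL receptor family, differed by 0.44 and 0.46. Rbmx2, a protein of the spliceosome, differed by 0.56, the zinc finger gene Zfp938 by 0.55, Edrf1 by 0.56 and the predicted gene Gm6460 by 0.44. Of these 8 only Gm6460 had groups that did not overlap, with 6.63, 6.64, 6.74, 6.55 and 7.22 at 12 h, against 6.11, 6.38, 6.36, 6.32 and 6.41 with saline.

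Among the genes with lower means, 6 encode proteins of transcription and chromatin. The share of such genes among all well measured ones was not determined, so the count describes only the genes named. Egr3, a zinc finger factor of the early response, had 7.12, 7.21, 7.12, 6.75 and 6.81 at 12 h, against 7.54, 7.61, 8.14, 7.54 and 7.72 with saline, without overlap. Its difference of -0.71 (SE 0.18, unadjusted p = 0.000783) had the smallest p of the well measured genes, but the probe set is 1 of 3 for Egr3 and marked as unmapped, and the other 2, near background, differed by 0.06 and -0.11. The level of Egr3 itself is therefore uncertain. Klf7, a Krueppel-like factor, had 11.79, 11.58, 11.66, 11.90 and 11.39 at 12 h, against 12.71, 12.13, 12.58, 12.35 and 11.64 with saline. Saline replicate 5 lay among the arrays of 12 h and the other 4 above them, and the difference was -0.62 (SE 0.18, unadjusted p = 0.00280). Klf13, of the same family, differed by -0.42, and Mllt3, a subunit of the super elongation complex, by -0.62.

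Pbrm1, a subunit of the PBAF chromatin remodelling complex, had 6.40, 6.80, 6.56, 6.79 and 6.60 at 12 h, against 7.01, 7.06, 7.48, 7.06 and 6.99 with saline, a difference of -0.49 (SE 0.14, unadjusted p = 0.00289). Ncoa7, a coactivator of nuclear receptors, had 7.97, 7.91, 8.05, 7.51 and 7.75 at 12 h, against 8.36, 8.55, 8.13, 8.54 and 8.08 with saline, a difference of -0.49 (SE 0.15, unadjusted p = 0.00308). In both genes every array at 12 h lay below every saline array.

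Mmp16, a membrane-bound matrix metalloproteinase that cleaves collagen and activates Mmp2, had the lowest difference of the well measured genes. Its levels were 8.0, 8.72, 8.40, 8.37 and 8.61 at 12 h, against 9.22, 8.74, 9.95, 8.82 and 9.14 with saline, a difference of -0.75 (SE 0.21, unadjusted p = 0.00220). The nearest arrays of the groups almost touched, at 8.72 and 8.74, and without saline replicate 3, the highest array, the difference was -0.56. Slc7a11, the antiporter that takes up cystine for glutathione, differed by -0.49, and by -0.34 without saline replicate 3. The importin gene Kpna3 differed by -0.68, Ccdc82 by -0.57, Pdzd8, a lipid transfer protein of contact sites with the endoplasmic reticulum, by -0.53, and Slc35a4 by -0.43, and of these only Pdzd8 had groups without overlap.

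**Figure D3:**
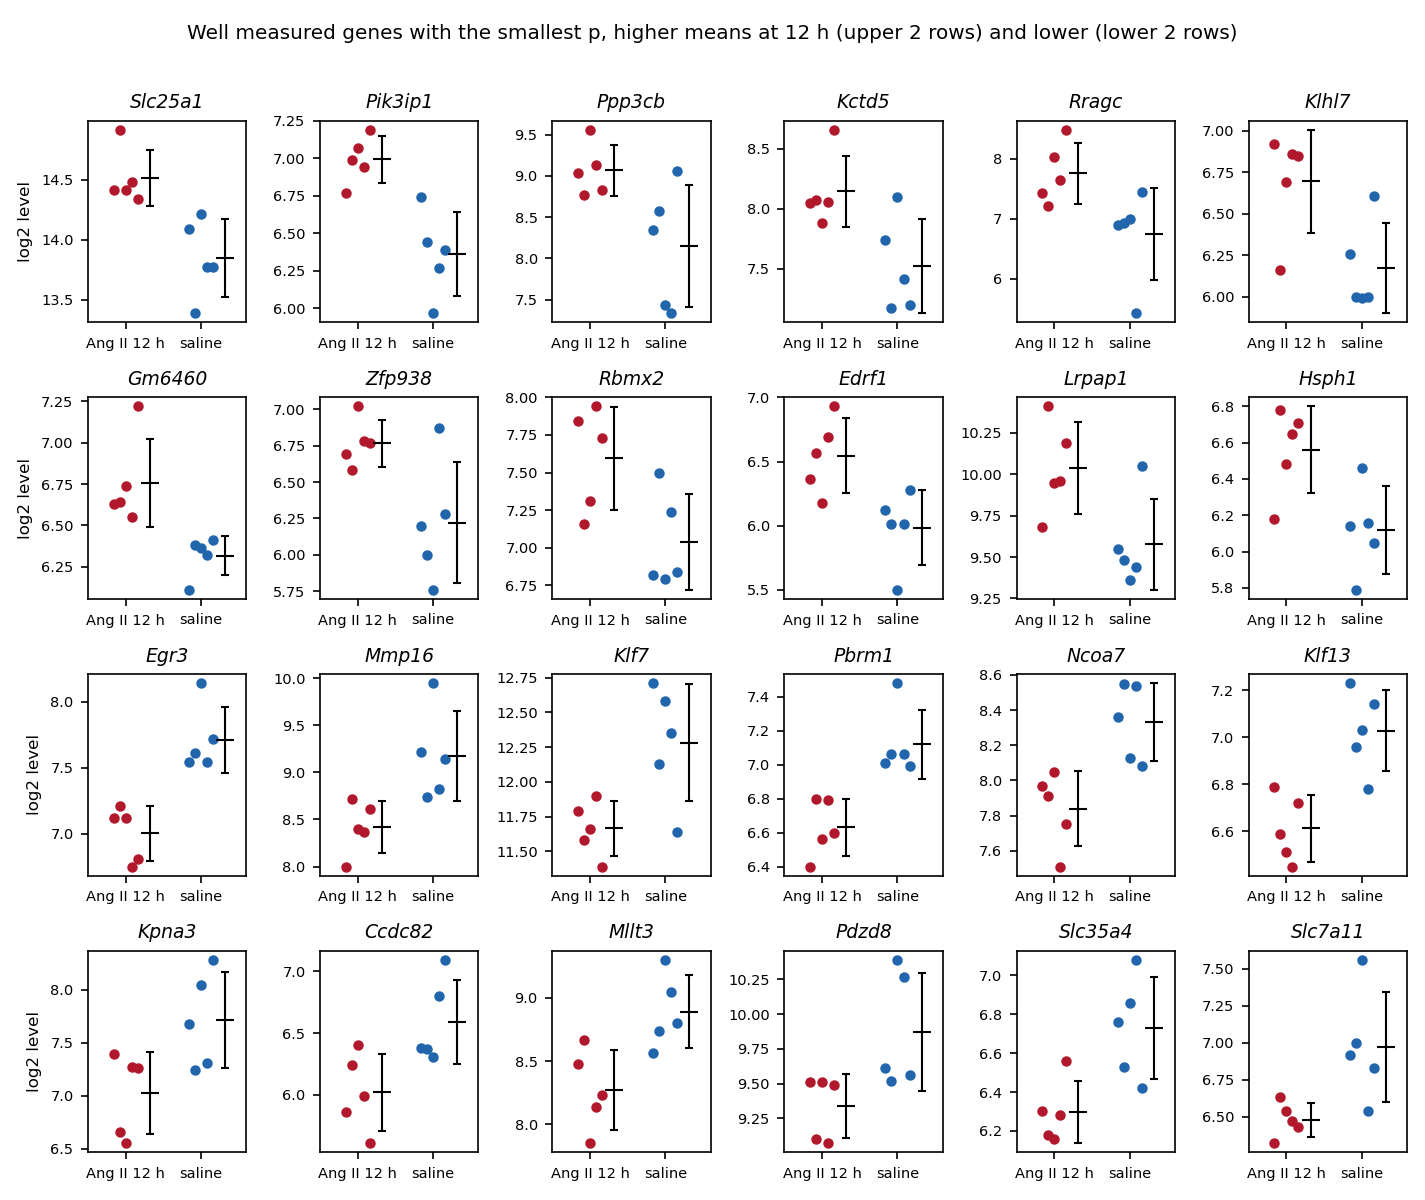
Log2 level of the 24 well measured genes on each array, with Ang II 12 h in red on the left and saline in blue on the right of each panel, and bars giving the mean and SD of 5 arrays. The upper 12 genes have higher and the lower 12 lower means at 12 h, the order follows the p-value, and the groups are parted without overlap in Slc25a1, Pik3ip1, Gm6460, Egr3, Mmp16, Pbrm1, Ncoa7 and Pdzd8.

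In all, 22 well measured probe sets (0.773%) had groups that did not overlap, 8 higher (0.281%) and 14 lower (0.492%) at 12 h, beside 0.664% near background and 0.689% over all probe sets. The 14 lower ones, which were named after their values were seen where the rule did not take them, were Egr3, Mmp16, Pbrm1, Ncoa7, Pdzd8, Hes1, Chd8, Prpf3, Klc1, Ythdf3, Timmdc1, Ypel5, Vti1a and Twsg1. Chd8, a chromatin remodeller that binds beta-catenin, had 9.11, 8.95, 9.04, 8.91 and 8.85 at 12 h, against 9.34, 9.13, 9.43, 9.41 and 9.31 with saline, a difference of -0.35 (SE 0.12). Ythdf3, a reader of methylated adenosine in mRNA, had 13.36, 13.17, 13.26, 13.47 and 13.34 at 12 h, against 13.51, 13.48, 14.04, 14.03 and 13.49 with saline, a difference of -0.39. In both genes the nearest arrays of the groups lay close together. The 8 higher ones were Slc25a1, Pik3ip1, Gm6460, Tmem26, Uri1, Serpina3i, Eef1e1 and Hnrnpab, with differences down to 0.18 for Hnrnpab, an RNA-binding protein, and Serpina3i belongs to a family of near-identical copies whose signals may be shared.

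To show the sequence before the starts of some of these genes, 250 bases upstream of annotated starts were read from RefSeq (GRCm38.p6) and searched on both strands for 2 motifs known from early response genes, the CArG box bound by serum response factor and the Egr site, written GCGGGGGCG or GCGTGGGCG, whose letters can overlap with a GC box (GGGCGG). The motifs and the genes shown were chosen after the values were seen. Of the 24 genes, 20 had a promoter in the table, and Egr3, Kpna3, Mmp16 and Slc35a4 did not. A CArG box stood before 1 of the 20 genes, Ncoa7, beside 1.62% of all 27025 genes, and an Egr site before 2, Ppp3cb and Slc25a1, beside 3.47%. Egr2, a well measured early response gene described below, had a CArG box in 4 of its 5 windows, some of which overlap. The 4 windows follow on the strand of the gene with the motif in capitals, for Egr2 chr10:67537316-67537565 (plus strand, motif from position -72 counted from the start), for Ncoa7 chr10:30655868-30656117 (minus strand, 1 of 2 windows, from -52), for Ppp3cb chr14:20546574-20546823 (minus strand, from -28) and for Slc25a1 chr16:17928220-17928469 (minus strand, from -41). A match of letters is a description and not a bound site.
Egr2: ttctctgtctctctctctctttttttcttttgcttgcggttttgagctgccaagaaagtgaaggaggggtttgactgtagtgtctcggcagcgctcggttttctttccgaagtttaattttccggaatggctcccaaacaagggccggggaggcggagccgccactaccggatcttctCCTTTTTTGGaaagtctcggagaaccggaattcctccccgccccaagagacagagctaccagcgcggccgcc
Ncoa7: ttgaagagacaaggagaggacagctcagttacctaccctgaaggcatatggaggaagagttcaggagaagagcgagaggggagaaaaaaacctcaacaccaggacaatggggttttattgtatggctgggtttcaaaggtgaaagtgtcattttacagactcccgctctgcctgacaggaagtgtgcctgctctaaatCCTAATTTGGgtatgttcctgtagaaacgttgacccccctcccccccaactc
Ppp3cb: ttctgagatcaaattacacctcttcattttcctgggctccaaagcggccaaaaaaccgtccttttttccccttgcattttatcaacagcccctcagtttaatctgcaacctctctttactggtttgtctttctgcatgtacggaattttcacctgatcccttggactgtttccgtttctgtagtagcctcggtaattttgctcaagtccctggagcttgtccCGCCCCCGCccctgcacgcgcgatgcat
Slc25a1: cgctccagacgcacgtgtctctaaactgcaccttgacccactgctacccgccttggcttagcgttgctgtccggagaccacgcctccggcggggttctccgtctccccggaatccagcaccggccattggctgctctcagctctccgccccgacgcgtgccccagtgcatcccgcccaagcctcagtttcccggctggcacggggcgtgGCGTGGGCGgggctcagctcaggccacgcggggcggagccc

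The components through which Ang II signals showed no difference past the test. Of 14 genes of angiotensin receptors and enzymes, 7 had higher and 7 lower means at 12 h, with a median difference of 0.00 and 0 under an unadjusted p of 0.05. Agtr1a had 5.70, 5.67, 6.19, 5.69 and 6.08 at 12 h, against 5.76, 5.26, 5.91, 5.19 and 5.67 with saline, a difference of 0.31 (SE 0.20, unadjusted p = 0.138), with overlapping groups near background. Agtr1b differed by -0.26 near background. The 2 well measured genes were the membrane metalloendopeptidase gene Mme, which differed by 0.14, and Atp6ap2, the renin receptor, with 6.93, 6.37, 7.07, 6.58 and 6.60 at 12 h, against 6.67, 6.21, 6.58, 6.10 and 6.46 with saline and a difference of 0.31 (unadjusted p = 0.0642). Of 7 well measured genes of Gq and calcium signalling, Ppp3cb had an unadjusted p under 0.05, and Camk2d, a calcium-dependent kinase subunit, differed by 0.32 (unadjusted p = 0.0687). Near background the phospholipase gene Plcb4 (0.51) and the calmodulin gene Calm3 (0.44) also had an unadjusted p under 0.05, so that 3 of 29 probe sets of this list did, all higher, beside 2.51% of all probe sets, while 13 had higher and 16 lower means and the median was -0.01.

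Among early response genes, those with an unadjusted p under 0.05 had lower means at 12 h. Of 32 probe sets, 15 had higher and 17 lower means at 12 h, and the median difference was -0.03. With an unadjusted p under 0.05, 5 were lower and 0 higher, beside 2.40% lower over all probe sets. Of the 5, 1 was the unmapped probe set of Egr3. The list was chosen with earlier results of these data known, so this count is no independent evidence of a direction. Egr2, a zinc finger factor whose promoter is shown above, had 8.41, 8.42, 7.99, 7.93 and 8.18 at 12 h, against 8.77, 8.96, 8.38, 8.37 and 8.74 with saline, a difference of -0.46 (SE 0.16, unadjusted p = 0.00947), and 2 arrays at 12 h reached just above the lowest of saline. Near background the other 3 were Ptgs2, the inducible cyclooxygenase, with 4.52, 4.02, 4.47, 4.37 and 4.29 at 12 h, against 4.92, 4.87, 5.28, 5.28 and 4.69 with saline, a difference of -0.67 without overlap, and the Krueppel-like factors Klf10 (-0.44, or -0.25 without replicate 5 of 12 h) and Klf6 (-0.43). Other well measured members lay on both sides, with -0.29 for Fosb, -0.03 for Myc, 0.21 for Atf3 and 0.28 for Jun, the last at 0.08 without saline replicate 1. For Myc the sign turned after quantile normalization (0.01).

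In the lists of MAP kinase feedback and of the Notch path, 1 of 20 genes each (5.00%) had an unadjusted p under 0.05, close to the 4.91% of all probe sets. Dusp10, a phosphatase of p38 and JNK, had 16.67, 17.13, 17.02, 16.60 and 16.22 at 12 h, against 17.29, 17.06, 17.27, 17.17 and 16.79 with saline, a difference of -0.39 (SE 0.17, unadjusted p = 0.0370). The groups overlapped. Spred1, an inhibitor of Ras signalling, differed by -0.29, and near background Spry3, a Sprouty gene, by 0.46 (unadjusted p = 0.0834). Hes1, a repressor induced by Notch, had 6.66, 6.63, 6.61, 6.61 and 6.28 at 12 h, against 6.88, 6.90, 7.23, 6.93 and 7.19 with saline, a difference of -0.47 (SE 0.16, unadjusted p = 0.00990) without overlap. Hey1, another Notch target, differed by 0.40 (unadjusted p = 0.0849), but by 0.17 without saline replicate 3, and near background Lfng, which modifies Notch receptors, differed by 0.45 (unadjusted p = 0.0599).

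The same 2 genes and the probe set of Egr3 were called at 24 h, with 4 probe sets (0.0180%) called against saline and 5 (0.0225%) against 12 h. Compared with the same saline arrays, the difference at 24 h was -1.45 for Dusp10 (adjusted p = 0.00134 in limma), -1.30 for Hes1 (adjusted p = 0.00155) and -1.20 for Egr3 (adjusted p = 0.0118), beside -0.39, -0.47 and -0.71 at 12 h. The levels at 24 h differed from those at 12 h past the adjusted test for Dusp10 (adjusted p = 0.0424) and not for Hes1 (0.169) or Egr3 (0.787). Myc, called at 24 h with -0.80 (adjusted p = 0.0320), had 10.47 ± 0.09 at 12 h and 10.50 ± 0.10 with saline (SD, n = 5).

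**Figure D4:**
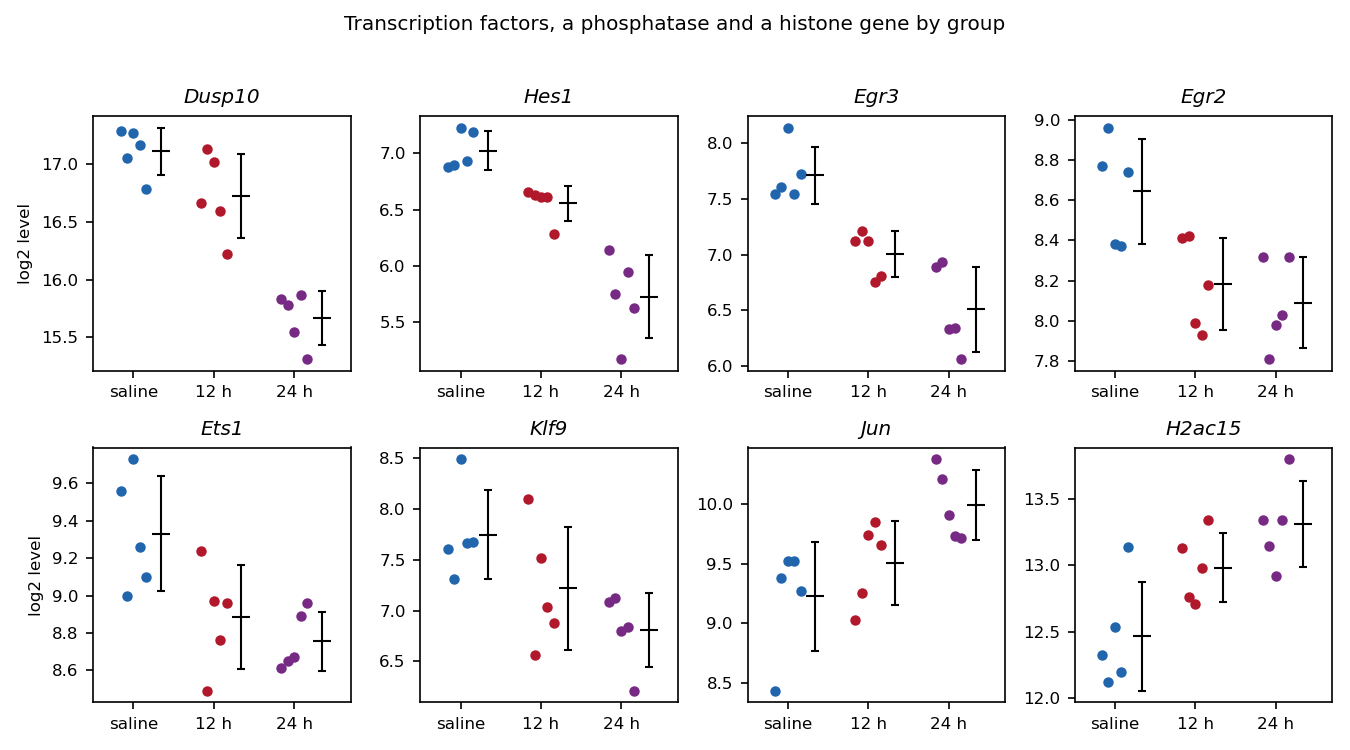
Log2 level on each array for 8 genes, in the order saline (blue), Ang II 12 h (red) and Ang II 24 h (purple), with the mean and SD of 5 arrays beside the points. In Dusp10, Hes1 and Egr3 the mean at 12 h lies between the means of saline and 24 h, with the arrays of Dusp10 at 12 h overlapping saline, while Jun and H2ac15 have their highest means at 24 h.

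The genes for which the methods list PCR fall into 13 taken from these arrays and 6 others, the lymphatic genes Lyve1, Prox1, Flt4 and Vegfc, the receptor gene Agtr1a and the reference gene Gapdh. The 13 genes had 9 higher and 4 lower means at 12 h, with a median difference of 0.07. Of the 13, 6 had an unadjusted p under 0.05, 3 in each direction, beside 2.51% higher and 2.40% lower over all probe sets. Having been chosen on these samples, they are no independent evidence of a direction. The 6 others had 5 higher means and 1 lower mean, with a median of 0.14. Of these, 0 had an unadjusted p under 0.05, beside 4.91% of all probe sets. Of all these PCR genes 9 were well measured, 5 with higher and 4 with lower means. Besides Dusp10 and Hes1, Ets1, an endothelial transcription factor, had 9.24, 8.49, 8.97, 8.76 and 8.96 at 12 h, against 9.56, 9.0, 9.73, 9.26 and 9.10 with saline, a difference of -0.45 (SE 0.17, unadjusted p = 0.0144). H2ac15, a histone H2A gene, had 13.13, 12.76, 12.71, 12.98 and 13.34 at 12 h, against 12.33, 12.12, 12.54, 12.20 and 13.14 with saline, a difference of 0.52 (SE 0.20, unadjusted p = 0.0164), and saline replicate 5 alone lay within the range of 12 h. Klf9, a Krueppel-like factor, differed by -0.53 (unadjusted p = 0.0539), and by -0.34 without saline replicate 3, Vegfc by 0.05, Sparc by 0.03 and Psmc4, an ATPase of the proteasome, by 0.01. Besides Jun above, the remaining ones lay near background. The olfactory receptor genes Olfr77 and Olfr1195 differed by 0.69 and 0.56, Kdr by 0.24, Flt4 by 0.24, Lyve1 by 0.15, Ace by 0.14, Stc1 by 0.07, Gapdh by 0.14 and Prox1 by -0.31, and of these only both olfactory receptor genes had an unadjusted p under 0.05.

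In growth factor and matrix lists the share of members with an unadjusted p under 0.05 rested on few members each, and a difference between lists was not tested. It was 2 lower of 21 probe sets (9.52%) for the VEGF and angiopoietin systems. For laminins, matricellular proteins and fibronectin it was 2 higher and 3 lower of 42 (11.9%). Collagens had 3.12%, integrins and adhesion 2.44%, and matrix proteases and inhibitors 2.94%. Over all probe sets the share was 4.91%, with 2.51% higher and 2.40% lower. Among 3 well measured genes of the VEGF and angiopoietin systems, Ccbe1, a secreted protein that VEGF-C needs for its processing, had 7.24, 6.86, 7.18, 7.03 and 7.02 at 12 h, against 7.24, 7.17, 7.99, 7.29 and 7.36 with saline, a difference of -0.34 (unadjusted p = 0.0427), with saline replicate 3 far above the others, and of -0.20 without it (unadjusted p = 0.166). Fn1, fibronectin, had 9.81, 9.95, 9.57, 9.64 and 9.51 at 12 h, against 10.17, 10.50, 9.85, 10.47 and 10.20 with saline, a difference of -0.54 (SE 0.18, unadjusted p = 0.00759), and 1 array at 12 h lay above the lowest of saline. The other 8 well measured laminin and matricellular genes did not reach an unadjusted p of 0.05, nor did any of 5 collagens. Of 6 well measured matrix proteases and inhibitors 5 had lower means, Mmp16 with -0.75 and Mmp14, its relative, with -0.31 (unadjusted p = 0.124), and the median was -0.12 beside -0.01 for all well measured probe sets. Of 11 well measured integrin and adhesion genes 0 reached an unadjusted p of 0.05.

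The Wnt list had the lowest median among lists with at least 4 well measured members, -0.15 beside -0.01 for all well measured probe sets. Of its 11 well measured members 8 had lower means at 12 h. The full list of 36 had 13 higher and 23 lower means and a median of -0.06. An unadjusted p under 0.05 was found for 1 higher and 2 lower of the 36, beside 2.51% higher and 2.40% lower of all probe sets. The higher one was Dvl1, near background, with a difference of 0.33 (unadjusted p = 0.0436). Lrp6, a Wnt coreceptor, had 6.34, 5.95, 6.02, 5.91 and 6.46 at 12 h, against 6.48, 6.46, 6.71, 6.38 and 6.71 with saline, a difference of -0.41 (SE 0.18, unadjusted p = 0.0298). The receptor gene Fzd8 had 7.13, 7.18, 6.10, 6.98 and 6.09 at 12 h, against 7.24, 7.02, 7.11, 7.09 and 7.33 with saline, a difference of -0.46 (SE 0.20, unadjusted p = 0.0312), with 2 arrays at 12 h far below all others. The kinase gene Gsk3b differed by 0.40 (unadjusted p = 0.0882), and by 0.21 without saline replicate 3.

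Genes of the actin cytoskeleton and cell migration had single members with higher means. Of 25 well measured genes 14 had higher and 11 lower means at 12 h, with a median of 0.01, and 2 had an unadjusted p under 0.05, both higher, beside 4.57% of all well measured probe sets (1.93% higher). Of the 2, 1 is described here. Myh9, the heavy chain of nonmuscle myosin IIA, had 10.11, 9.95, 9.95, 9.92 and 9.85 at 12 h, against 9.89, 9.38, 9.39, 9.39 and 9.70 with saline, a difference of 0.41 (SE 0.18, unadjusted p = 0.0389). Among all probe sets near background, 2.61% were higher and 2.36% lower with an unadjusted p under 0.05. Of the 16 members of the list near background, 3 were higher and 1 lower by this measure. Of these Rnd1, a small GTPase that loosens actin stress fibres, had 4.90, 4.87, 4.81, 5.00 and 5.14 at 12 h, against 4.55, 4.77, 4.44, 4.41 and 4.05 with saline, a difference of 0.50 without overlap.

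In each of the metabolic and stress lists 1 well measured member had an unadjusted p under 0.05, beside 4.57% of all well measured probe sets. Of 6 well measured genes of cholesterol and fatty acid synthesis, Insig1, which holds the sterol sensor in the endoplasmic reticulum, had 6.99, 7.12, 7.05, 7.24 and 7.15 at 12 h, against 7.06, 6.79, 6.57, 6.75 and 6.66 with saline, a difference of 0.34 (SE 0.13, unadjusted p = 0.0165), while Acly, which makes acetyl-CoA from the citrate that Slc25a1 exports, differed by 0.08. Of 5 heat shock genes Hsph1 had 6.18, 6.78, 6.48, 6.65 and 6.71 at 12 h, against 6.14, 5.79, 6.46, 6.16 and 6.05 with saline, and Dnajb1, a partner of Hsp70, differed by 0.25, and by 0.07 without saline replicate 3. Of 12 hypoxia and glycolysis genes 9 had lower means, with Hif1a, the oxygen-regulated transcription factor, at -0.32 (SE 0.13, unadjusted p = 0.0246). The full list of 38, with those near background, had 18 higher and 19 lower means and a median of -0.01. Of 9 genes of the unfolded protein and Atf4 response only Slc7a11 had an unadjusted p under 0.05, and it was also the only one of 6 well measured oxidant and NADPH oxidase genes.

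The large cellular machines lay close to 0. The well measured members had medians of -0.01 for 38 ribosomal proteins, 0.01 for 23 proteasome subunits, 0.02 for 19 subunits of oxidative phosphorylation and 0.03 for 46 histones, beside -0.01 for all well measured probe sets. In these lists 0 ribosomal, 0 proteasome, 1 oxidative phosphorylation (Atp5g2, a subunit of the ATP synthase ring, 0.37) and 1 histone gene (H2ac15) had an unadjusted p under 0.05. Of all well measured probe sets 4.57% did. Of 22 well measured splicing and RNA polymerase II genes Sf3b1, a core protein of the U2 particle, did, with -0.38. Of 8 well measured genes of G1 and S phase and 4 of G2 and M phase, 0 did, and the medians were -0.11 and 0.00. The same holds for 4 clock genes (median -0.03), 2 interferon response genes and 5 of Jak-STAT signalling (median 0.04). At a share of 4.57%, 0 of so few genes does not show an absence of change. Near background Pim1, a kinase induced by STAT factors, differed by -0.64 (unadjusted p = 0.00308) and Stat4 by 0.57. Of 37 NF-kB and inflammatory genes 20 had higher and 17 lower means, with a median of 0.01. An unadjusted p under 0.05 was found for 3 of them (8.11%), all lower, beside 4.91% of all probe sets (2.40% lower). These were Ptgs2, counted above among early response genes, Nfkbia (-0.34) and Il1b (-0.40), all near background.

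**Figure D5:**
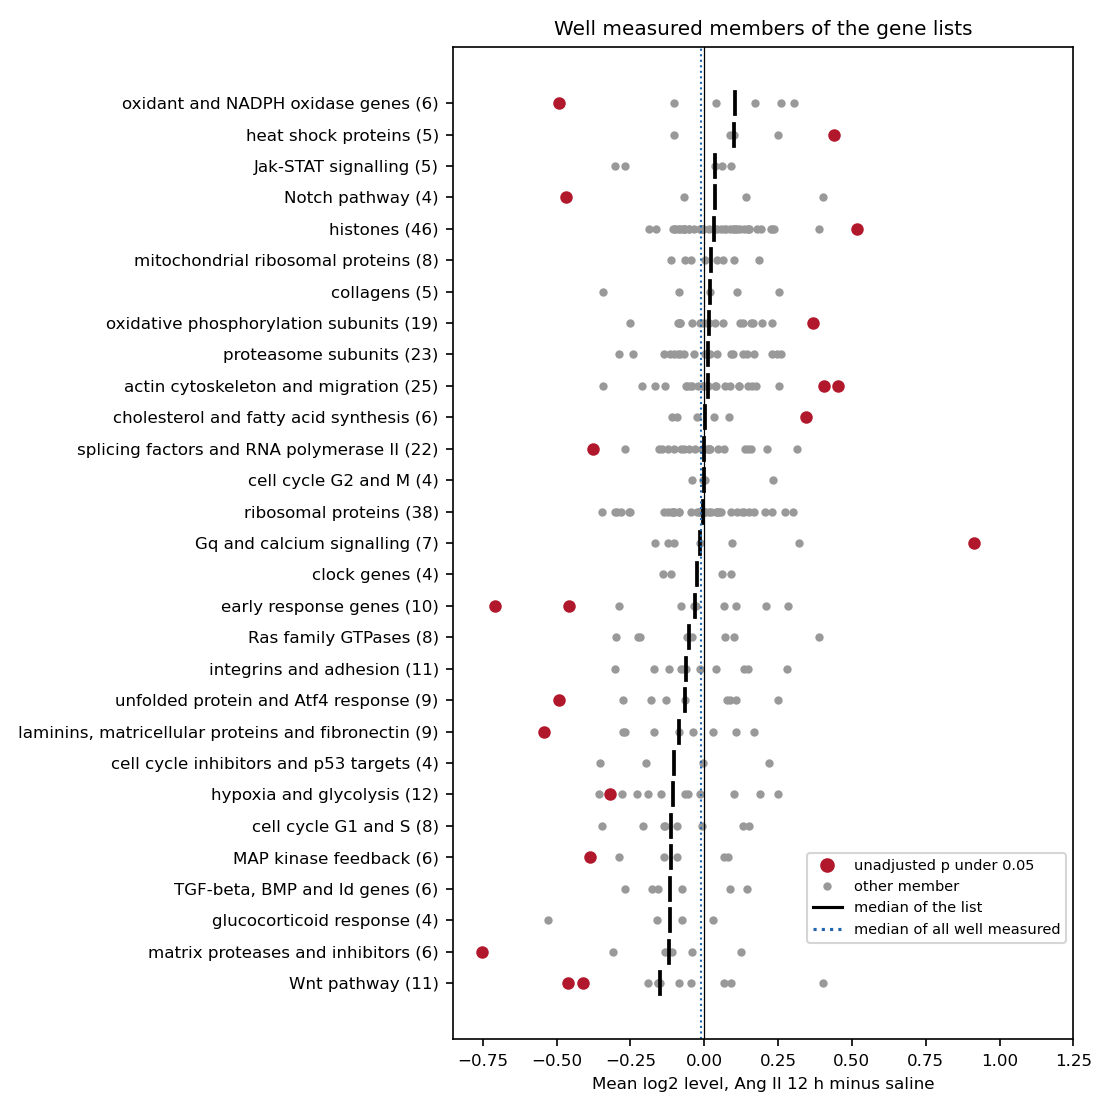
Difference between mean log2 levels, Ang II 12 h minus saline, for the well measured members of lists with at least 4 such members (number in brackets), with red points for an unadjusted p under 0.05, a black bar for the median of the list and a dotted line for the median of all well measured probe sets (-0.01). List medians lie between -0.15 and 0.11, and at most 2 members of any list shown have an unadjusted p under 0.05.

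The smallest p-values of the whole comparison belonged to genes near background, where a difference may be that of background signal. Rasl11a, a Ras-like GTPase, had 3.91, 4.29, 3.76, 4.48 and 4.32 at 12 h, against 3.35, 3.38, 3.13, 3.20 and 3.28 with saline, a difference of 0.88 (SE 0.18, unadjusted p = 9.52e-05, adjusted p = 0.934). Cyp2c37, a cytochrome P450 best known from liver, had 5.67, 5.53, 5.68, 5.74 and 5.68 at 12 h, against 4.88, 5.16, 4.90, 5.12 and 5.03 with saline, a difference of 0.64. Neither group of arrays overlapped with the other in these genes, nor in Nudt13 (0.70) or Tex14 (0.72), and Rasl11a averaged 3.28 at 24 h, beside 3.27 with saline. The lower means were led by Dnase1l3, a secreted DNase (-0.79), and by the olfactory receptor genes Olfr194 (-0.94), Olfr1140 (-0.77) and Olfr1173 (-0.68). Odorant receptor genes, which resemble each other closely so that probes may be shared, had 43 higher and 35 lower of 1080 probe sets with an unadjusted p under 0.05 (7.22%), beside 4.97% of all probe sets near background, and a median of 0.00. Vomeronasal receptors had 6.85% of 321, taste and trace amine receptors 3.77% of 53, and keratin-associated proteins and defensins 4.50% of 111.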

How the data were processed

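RNA of 15 arrays was measured on an Affymetrix mouse array, and the log2 values deposited by the authors, made with GCOS and, in the Transcriptome Analysis Console, robust multi-array averaging (RMA), were used as given. Its genome build was not given in the sources used here. Symbols came from the platform annotation, and 2634 probe sets with no symbol or several were tested but not named. All 15 arrays entered 1 linear model with the 3 groups (limma 3.58.1, R 4.3.3; residual degrees of freedom 12, prior 8.03), and Ang II 12 h was contrasted with saline, with Benjamini-Hochberg adjustment over 22206 probe sets. The procedure was tested on simulated data. The rule took the 12 well measured genes with the smallest p in each direction, 4 near background in each direction, up to 4 members of each of 44 gene lists, the PCR genes and the markers. The text names a part of these. Lists not described include TGF-beta, BMP and Id genes (2 higher and 2 lower of 42 with an unadjusted p under 0.05, 9.52%) and mitochondrial ribosomal proteins (4 higher and 4 lower of 76, 10.5%). The glucocorticoid response list, with 0 of 17, is another. Over all probe sets the share was 4.91%. Of 985 symbols asked for in the lists, 72 were not matched. The members and lists were chosen with earlier results of these data known. The alternatives were the 10 arrays only, quantile normalization, median centring, other variance models, array weights, a replicate block, filters, probe sets averaged per gene, Duncan's test and leaving out arrays. The number of arrays limits the precision. 1 gene of the actin list is not reported here.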

Additional observations from a re-analysis of the deposited data

Results flagged for a closer look

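Of 286 groups of 5 arrays examined, 22 held an array far from the other 4 by Dixon's criterion, which chance alone gives in about 1 group in 20, and 6 of them concerned saline replicate 3. That array had the widest residual SD, 0.336 against 0.266 to 0.285 for the other saline arrays, and the lowest mean correlation with the other arrays, 0.958. It was high in Ccbe1 (7.99, the others at most 7.36), Klc1 (8.72, the others at most 8.43) and Pbrm1 (7.48, the others at most 7.06), and low in Zmat3 (3.65, the others at least 4.67).

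In genes with higher means at 12 h, single arrays at 12 h stood above their group in Slc25a1 (replicate 2, 14.92), Kctd5 (replicate 5, 8.66), Gm6460 (replicate 5, 7.22), Uri1 (replicate 5, 7.03) and Nudt13 (replicate 4, 6.34). Rragc had 1 low saline array (replicate 4, 5.43, the others at least 6.89) and Lrpap1 1 high saline array (replicate 5, 10.05). At 12 h Hes1 had a low value in replicate 5 (6.28, the others at least 6.61), as did Agtr1b in replicate 4 (3.83), Col4a5 in replicate 3 (3.99) and Prox1 in replicate 1 (4.63). Tpi1 was high in replicate 3 (6.96) and Olfr1173 in replicate 1 (4.05) at 12 h. With saline, Jun was low in replicate 1 (8.43), and Mcm4 (4.91) and Vegfc (6.71) were high in replicate 2.

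The levels at 24 h of Ang II differed from those at 12 h in 5 of 22206 probe sets (0.0225%) by the limma contrast of both times. Dusp10 (adjusted p = 0.0424) and Myc (adjusted p = 0.0452) were lower at 24 h. Near background Ube2u averaged 3.73 with saline, 3.31 at 12 h and 4.39 at 24 h (adjusted p = 0.0417), Nsun3 3.94 with saline, 3.47 at 12 h and 4.56 at 24 h (adjusted p = 0.0424), and Gm5885 4.27 with saline, 4.78 at 12 h and 3.82 at 24 h (adjusted p = 0.0452).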

How the results depend on the processing

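Under every alternative run, 0 probe sets passed the adjusted test at 12 h, and the smallest adjusted p over all settings was 0.181. Before adjustment, leaving out 1 array at a time gave 1013 to 1245 of all probe sets with a p under 0.05 (501 to 624 higher, 512 to 637 lower) and 110 to 172 of the well measured ones (41 to 74 higher, 68 to 101 lower). With a mark of low signal 1 log2 unit higher, 55 of 1392 well measured probe sets did so, 19 higher and 36 lower. Among well measured probe sets only, 22 had groups without overlap, 8 higher and 14 lower. Over all probe sets 153 did not overlap, 81 higher and 72 lower, and with 1 array left out of either group 280 to 383 did not, 144 to 203 higher and 136 to 180 lower, since fewer arrays have to part. Without saline replicate 3 and 24 h replicate 3, a choice made after seeing the data, 1046 probe sets had an unadjusted p under 0.05, 110 of them well measured. Quantile normalization gave 68 higher and 65 lower well measured probe sets, beside 55 and 75 without it. Median centring turned the balance over all probe sets, to 491 higher and 579 lower with an unadjusted p under 0.05, beside 557 and 534, and to 63 higher and 80 lower without overlap.

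Same-numbered arrays of both groups deviated with correlations of -0.02, 0.02, 0.00, 0.00 and 0.04, so the numbers were not taken to pair the samples. With the replicate block 0 probe sets passed the adjusted test and 1115 had an unadjusted p under 0.05.

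Of 1974 values of 141 genes under settings that can move the difference, 1962 kept their direction, and 0 passed the adjusted test. Many of these genes had been named for a small p in the same contrast, and the settings share most of their arrays. A kept direction was thus largely set in advance and is no independent support. Leaving out 24 h replicate 3 besides saline replicate 3 gave the same differences as leaving out saline replicate 3 alone, so these values are repeated in the count. The 12 values that turned came from 6 genes with differences of at most 0.136. Without single arrays Acly ranged from -0.010 to 0.205, Mme from -0.035 to 0.334, Psmc4 from -0.226 to 0.172, Sparc from -0.0395 to 0.118 and Stc1 from -0.0505 to 0.175, and Myc was 0.0145 after quantile normalization. Of 569 list medians 34 moved by more than the spread between arrays. Single arrays also moved Prox1 to -0.49 and Ypel5 to -0.27 (both without saline replicate 3), Agtr1b to -0.10 (without saline replicate 5), Kdr to 0.09 (without 12 h replicate 4), Olfr77 to 0.45 (without 12 h replicate 5), Atf3 to 0.12 and Flt4 to 0.15 (both without 12 h replicate 1).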
